A study of Drosophila melanogaster with 9 samples.

Results

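Hi-C ligates and sequences DNA fragments that were neighbours in fixed nuclei. It gave 2 lists of paired 10 kb bins, and the pairs described here are those whose bins lie over 5 Mb apart inside the arms 2L, 2R and 3L of Drosophila melanogaster. A pair was taken when its bin starts were more than 5 Mb apart and neither start lay in the first or last 1 Mb of its arm. This left 4097 of 59303 pairs in the heat-shock list (6.91%) and 2528 of 33978 pairs in the companion list (7.44%). The heat-shock list covers 2 HindIII Hi-C libraries together, made from Kc167 cells grown at 25 °C and held at 37 °C for 20 min before fixation. Kc167 is an established line of female embryonic cells. No label used here gives cells, a treatment or a number of libraries for the companion list. Another 7 samples of the series, ChIP-seq libraries and an input, were not analysed here.

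Contacts within a chromosome arm become rarer with distance, because the arm is a polymer whose near parts meet most often. Contacts over several megabases are known in flies between Polycomb-bound genes, between heterochromatic stretches and between some insulator sites. In Hi-C lists such a contact can appear as 1 bin joined to 1 bin, as 1 bin joined to a run of neighbouring bins, or as a patch that covers a stretch at both ends.

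Each pair carries a deposited score, at most -2, where a more negative value is a stronger pair. Its base, test and background model are unknown, so the score ranks pairs within a list, and scores of both lists are printed side by side without a comparison of size. The lists hold no read counts, so the depth is unknown, and a missing pair may have fallen short of the limit by any margin. There is 1 list of each kind, and therefore no replicate spread and no test between them. Intervals are exact at 95% and allow for counting error alone. Neighbouring pairs are not independent, which these intervals ignore. No source used here names the genome build, so no gene was assigned to a bin, and positions are those of the lists, counted from 1.

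The very distant pairs became sparser with distance in both lists, and the surplus of the heat-shock list over the companion list shrank along the way. Between 5 and 7.5 Mb the lists held 2.15 heat-shock and 1.16 companion pairs per 1000 possible bin pairs. The densities were 1.07 and 0.682 between 7.5 and 10 Mb, and 0.539 and 0.411 between 10 and 15 Mb. Over 15 Mb they were 0.208 for heat-shock and 0.246 for companion pairs. As numbers of pairs, the ratio of heat-shock to companion was 1.86 (1.73 to 1.99) between 5 and 7.5 Mb and 1.56 (1.41 to 1.73) between 7.5 and 10 Mb. It was 1.31 (1.17 to 1.47) between 10 and 15 Mb and 0.85 (0.65 to 1.10) over 15 Mb, where the heat-shock list had 112 pairs and the companion list 132. Over the whole range it was 1.62 (1.54 to 1.70), against 1.75 (1.72 to 1.77) for the complete lists and 2.03 (1.97 to 2.09) for pairs 1 to 5 Mb apart in the same arm interiors.

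On each of the 3 arms the ratio was lower over 15 Mb than at 5 to 7.5 Mb. Over 15 Mb, where the interval of each arm includes 1, there were 30 heat-shock and 38 companion pairs on 2L, 17 and 24 on 2R, and 65 and 70 on 3L. At 5 to 7.5 Mb, arm 2L had 633 heat-shock and 305 companion pairs (ratio 2.08, 1.81 to 2.39), arm 2R 881 and 507 (1.74, 1.56 to 1.94), and arm 3L 832 and 452 (1.84, 1.64 to 2.07). When only as many of the strongest heat-shock pairs were kept as the companion list holds, the totals were equal by construction. The ratio was then 1.19 (1.11 to 1.29) between 5 and 7.5 Mb and 0.49 (0.36 to 0.67) over 15 Mb. Heat-shock pairs had a median distance of 7.07 Mb (6.99 to 7.13 Mb), and companion pairs one of 7.505 Mb (7.38 to 7.67 Mb). At the 5 Mb limit nothing changed abruptly in the heat-shock list, with 252 pairs up to 0.2 Mb beyond the limit (median score -2.42) and 264 up to 0.2 Mb short of it (-2.42). The companion list had 87 beyond it (-2.54) and 117 short of it (-2.41).

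**Figure D1:**
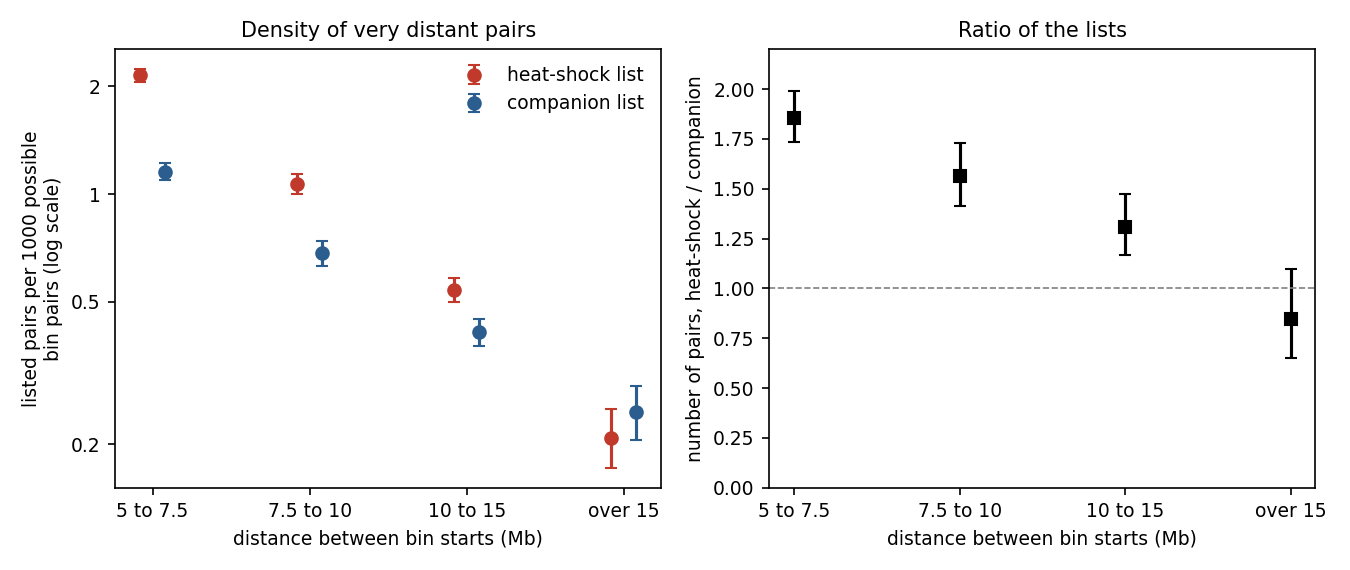
Left, listed very distant pairs per 1000 possible bin pairs (log axis) against distance in Mb, with exact 95% counting intervals; right, the number of heat-shock pairs divided by the number of companion pairs. The ratio is 1.86 at 5 to 7.5 Mb and 0.85 over 15 Mb, where its interval spans 1.

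Most very distant pairs stood alone at a neighbourhood of 50 kb. A pair was called isolated when no other very distant pair of its list lay within 50 kb at both of its ends, and this held for 64.8% of heat-shock pairs (63.3 to 66.3%, 2656 pairs) and 70.0% of companion pairs (68.1 to 71.8%, 1769 pairs). Counted against all pairs of a list, the share was 22.8% and 27.6% in the complete lists. Other parts were counted among their own pairs alone. There the share was 22.7% and 32.5% for pairs 1 to 5 Mb apart in the same interiors. Over 5 Mb apart, it was 65.9% and 77.2% inside 3R and 68.4% and 75.4% inside X. For pairs over 5 Mb apart that touch the end 1 Mb of 2L, 2R or 3L, it was 49.5% and 52.5%. Among the very distant pairs described here, the share was higher at greater distance, where pairs were sparser. It was 53.1% of heat-shock and 60.5% of companion pairs between 5 and 7.5 Mb, and 92.9% and 87.9% over 15 Mb. With as many of the strongest heat-shock pairs as companion pairs, the heat-shock share was 70.1% (68.3 to 71.9%), which overlaps the companion interval. With a neighbourhood of 100 kb the isolated share was 40.4% of heat-shock and 52.0% of companion pairs, so most heat-shock pairs then had a neighbour.

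Being isolated did not mean that the bins were used in no other pair. Both bins had that single very distant partner in 118 of the 2656 isolated heat-shock pairs (4.44%, 3.69 to 5.30%) and in 233 of the 1769 isolated companion pairs (13.2%, 11.6 to 14.8%). At least 1 bin had 5 or more very distant partners in 48.2% (46.3 to 50.1%) and 23.2% (21.3 to 25.3%) of them. An isolated pair was therefore often 1 contact of a bin whose other contacts lay elsewhere on the arm. Such reuse was not particular to isolated pairs. Among all very distant pairs, larger shares touched a bin with 5 or more partners, 58.4% (heat-shock) and 35.2% (companion). A bin with 2 or more was touched by 3965 of all 4097 heat-shock pairs and 2275 of all 2528 companion pairs. Over all pairs, the weakest were the most often isolated. With scores above -3 the isolated share was 68.1% of heat-shock and 75.1% of companion pairs, and with scores of -10 or below it was 29.9% (19.3 to 42.3%) and 36.7% (29.0 to 44.9%). The strongest pairs include much of the largest group, described next. Outside it, 20 of 30 such heat-shock pairs (66.7%, 47.2 to 82.7%) were isolated, close to the 69.5% of all heat-shock pairs outside it. Of such companion pairs 55 of 114 were (48.2%, 38.8 to 57.8%), below the 74.9% of all companion pairs outside it.

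**Figure D2:**
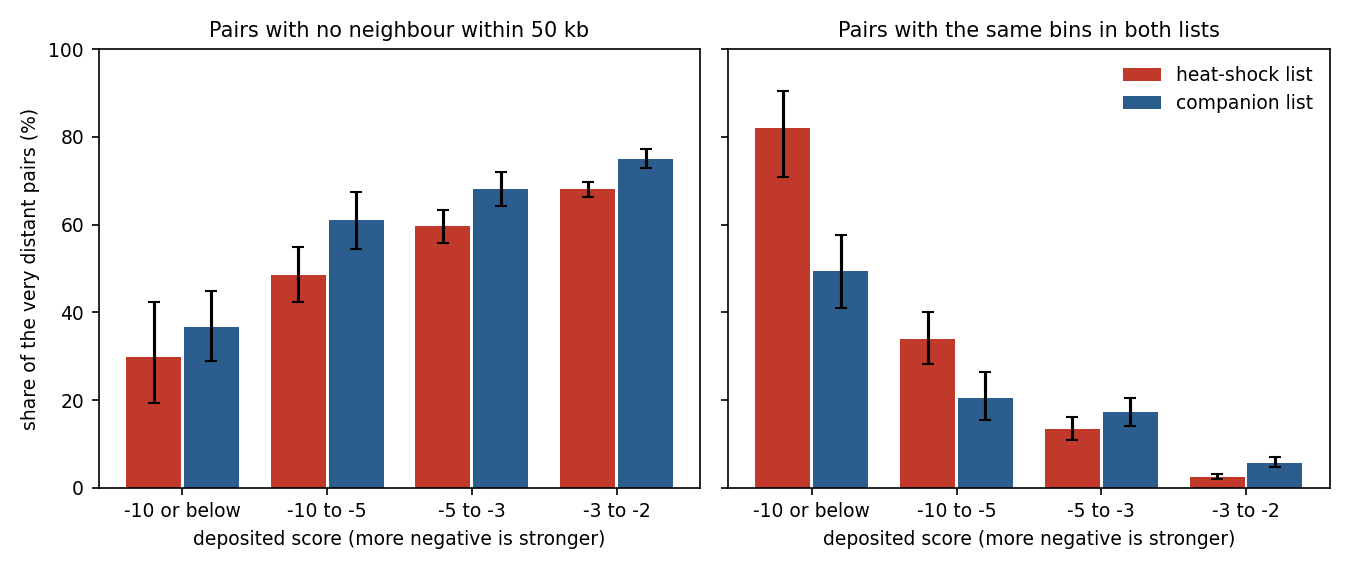
Share of very distant pairs (%) that were isolated (left) and that had the same bins in both lists (right), by deposited score, with exact 95% intervals. Weaker pairs were more often isolated in both lists, which in the heat-shock list rested on the largest group (66.7% of pairs at -10 or below and 69.5% of all pairs outside it), and 82.1% of heat-shock pairs at -10 or below were shared.

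Pairs with a neighbour formed 426 heat-shock groups and 222 companion groups, where a group is a chain of pairs, each within 50 kb of the next at both ends. Of these, 290 heat-shock and 160 companion groups held only 2 pairs, and 36 and 17 held 5 or more. A single group outgrew all others in both lists. It joined the stretch 2R 11120001-12240000 to 2R 18440001-18580000 with 278 heat-shock pairs, and 2R 11360001-12090000 to 2R 18410001-18490000 with 162 pairs in the companion list. The second largest groups held 20 and 16 pairs. Within the combined limits, 2R 11120001-12240000 with 2R 18410001-18580000, there were 278 heat-shock and 169 companion pairs, 6.79% and 6.69% of all very distant pairs.

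At its second end this group was a block of 4 bins with sharp edges, while at its first end it faded gradually. The bins of 2R 18450001-18490000 took 96.8% of the heat-shock pairs and 97.6% of the companion pairs in it. Bin 2R 18450001-18460000 held 71 heat-shock and 46 companion pairs, and the bin just before it held 3 and 2. Bin 2R 18480001-18490000 held 84 and 50 pairs, and the bin just after it 2 and 0. The bins between them, 2R 18460001-18470000 and 2R 18470001-18480000, held 58 and 37 and 56 and 32 pairs. No such edge appeared at the first end. The strongest pair of the group in both lists joined 2R 11780001-11790000 to 2R 18480001-18490000, with a heat-shock score of -54.8 and a companion score of -74.6. In the 100 kb before its first bin, all 40 of the 40 possible pairs with the block were listed in both lists. In the 100 kb that starts at it, 34 heat-shock and 32 companion pairs were listed. From 200 to 290 kb after it there were 23 and 10, and from 400 to 490 kb after it 2 and 1.

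The listed pairs of the group extended over a longer first end in the heat-shock list. Within 200 kb of the strongest pair's first bin the block had 144 heat-shock and 116 companion pairs of 164 possible ones (87.8% and 70.7%), so that the ratio of 1.24 (0.97 to 1.60) had little room to be higher. Beyond 200 kb, within the combined limits, it had 125 and 49 of 284 possible pairs (44.0% and 17.3%), a ratio of 2.55 (1.82 to 3.63). This interval includes the ratio of 1.86 of all pairs 5 to 7.5 Mb apart, so no difference from the lists as a whole is shown. Of the pairs in the group 157 were the same in both lists, which is 56.5% of the heat-shock pairs and 92.9% of the companion pairs, and their scores had a Spearman rho of 0.80 across pairs, which share bins and are not independent. The block had few near partners. Within 1 Mb each of its bins had 1 or 2 heat-shock and 0 or 1 companion partners, and the median bin of the 3 arm interiors without a very distant partner had 1 in either list. The block bin 2R 18480001-18490000 had 107 heat-shock partners in all, of which 99 were very distant, and 52 companion partners, all of them very distant.

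**Figure D3:**
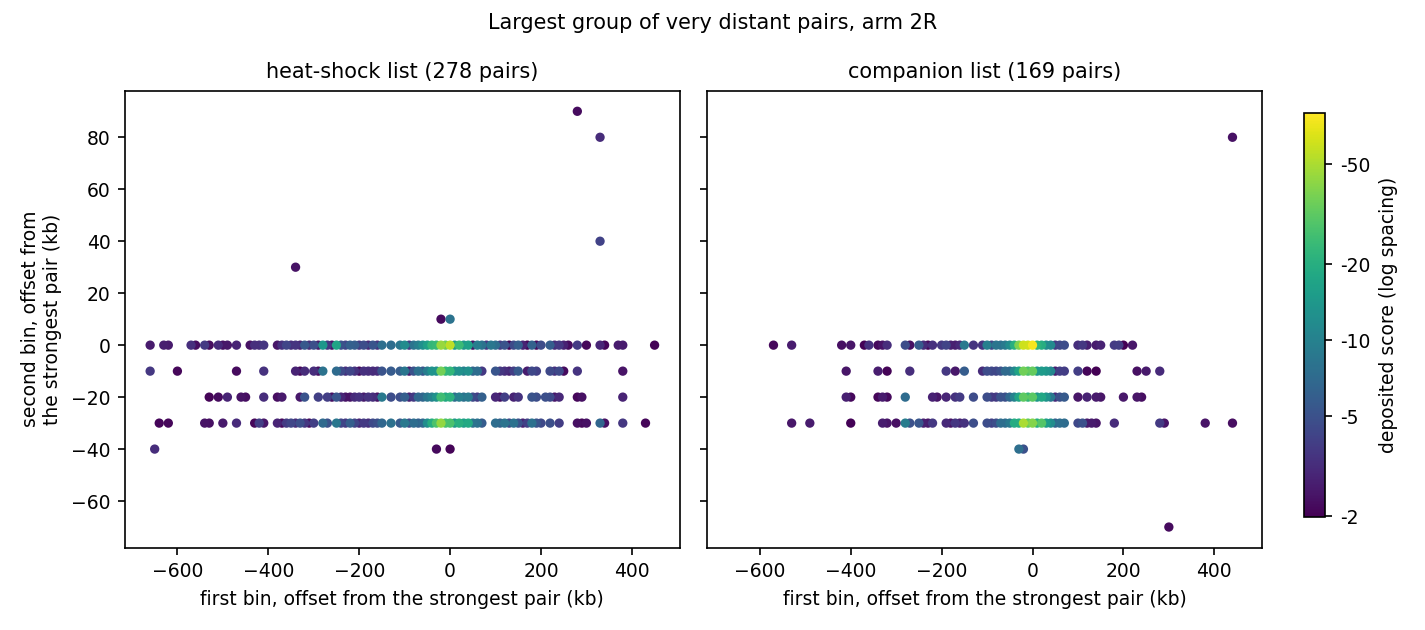
Pairs of the largest group, as the offset in kb of each bin from the strongest pair (2R 11780001-11790000 with 2R 18480001-18490000), coloured by deposited score on a logarithmic scale, heat-shock list left and companion list right. Nearly all of the 278 and 169 pairs lie on 4 neighbouring second bins and fade to both sides along the first.

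The other large groups were far smaller, and their shape differed between the lists. All 36 heat-shock groups of 5 or more pairs covered at least 2 bins at both ends. In the companion list 7 of 17 did, and the other 10 hung on 1 bin at 1 of their ends. Over groups of any size, 127 of 426 heat-shock groups (29.8%, 25.5 to 34.4%) and 115 of 222 companion groups (51.8%, 45.0 to 58.5%) hung on a single bin. The heat-shock list held more very distant pairs, and group shapes were not compared at equal length.

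The second heat-shock group was a loose patch of 20 pairs that joined 2R 13310001-13490000 to 2R 19760001-20030000. Its strongest score was -6.19, and none of its 20 pairs was in the companion list, which held 12 pairs within 50 kb of its limits. A patch of 16 pairs between 2L 4970001-5060000 and 2L 10200001-10430000 was the third heat-shock group, with scores down to -3.53. It met the second companion group, also of 16 pairs, from 2L 4950001-5060000 to 2L 10200001-10440000, with scores down to -5.32. Although these patches lie on the same neighbourhoods, only 1 pair was the same in both lists.

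The fourth heat-shock group had 13 pairs, joining 3L 5540001-5800000 to 3L 19810001-19870000, and 12 of them used the bin 3L 19810001-19820000. Its strongest pair scored -12.5 and the companion list held no pair within 50 kb of its limits. The fifth, 11 pairs between 2R 11880001-12070000 and 2R 16970001-17090000, was weak, with a strongest score of -3.41, and 11 companion pairs lay within 50 kb of its limits.

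In the companion list the third group had 13 pairs, 12 of them on the bin 3L 11060001-11070000, which faced 3L 2560001-2790000, and its strongest score was -30.2. The fourth hung entirely on 3L 11260001-11270000, which was joined to 10 bins of 3L 18200001-18420000 with scores down to -97.0. The heat-shock list had 1 pair within 50 kb of its limits. The fifth joined 2 bins, 3L 5720001-5740000, to 10 bins of 3L 18770001-18930000, with scores down to -17.7 and 2 heat-shock pairs nearby.

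Other listed pairs around strong pairs of the companion list mostly used a bin of the strong pair. Outside the largest group, 30 heat-shock and 114 companion pairs scored -10 or below. Within 100 kb of such a pair at both ends lay 32 different other heat-shock pairs and 165 different companion pairs, some of them strong themselves. Of these, 22 heat-shock pairs (68.8%) and 137 companion pairs (83.0%) used a bin of a strong pair beside them, and 10 and 28 used neither bin. In the window around a single pair, positions on 1 of its bins make up 9.09%. Counted around each pair in turn, the heat-shock and companion shares on a same bin were 64.1% and 86.9% for these strong pairs. They were 22.0% and 41.7% around pairs outside the group that scored over -5. Use of a same bin was therefore not limited to strong pairs.

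Several strong pairs can belong to 1 run along a bin, so neighbourhoods were counted as well, each joining the strong pairs within 100 kb of one another. The 30 heat-shock pairs formed 26 neighbourhoods and the 114 companion pairs 92, with at most 3 and 6 strong pairs in 1 of them. A pair on the same bin was present in 8 heat-shock neighbourhoods (30.8%, 14.3 to 51.8%) and in 37 companion neighbourhoods (40.2%, 30.1 to 51.0%), and these intervals overlap. With the 114 strongest heat-shock pairs, 65 of 148 different pairs around them (43.9%) used a bin of a strong pair. By neighbourhood it was 30 of 104 (28.8%, 20.4 to 38.6%), which overlaps the companion interval.

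**Figure D4:**
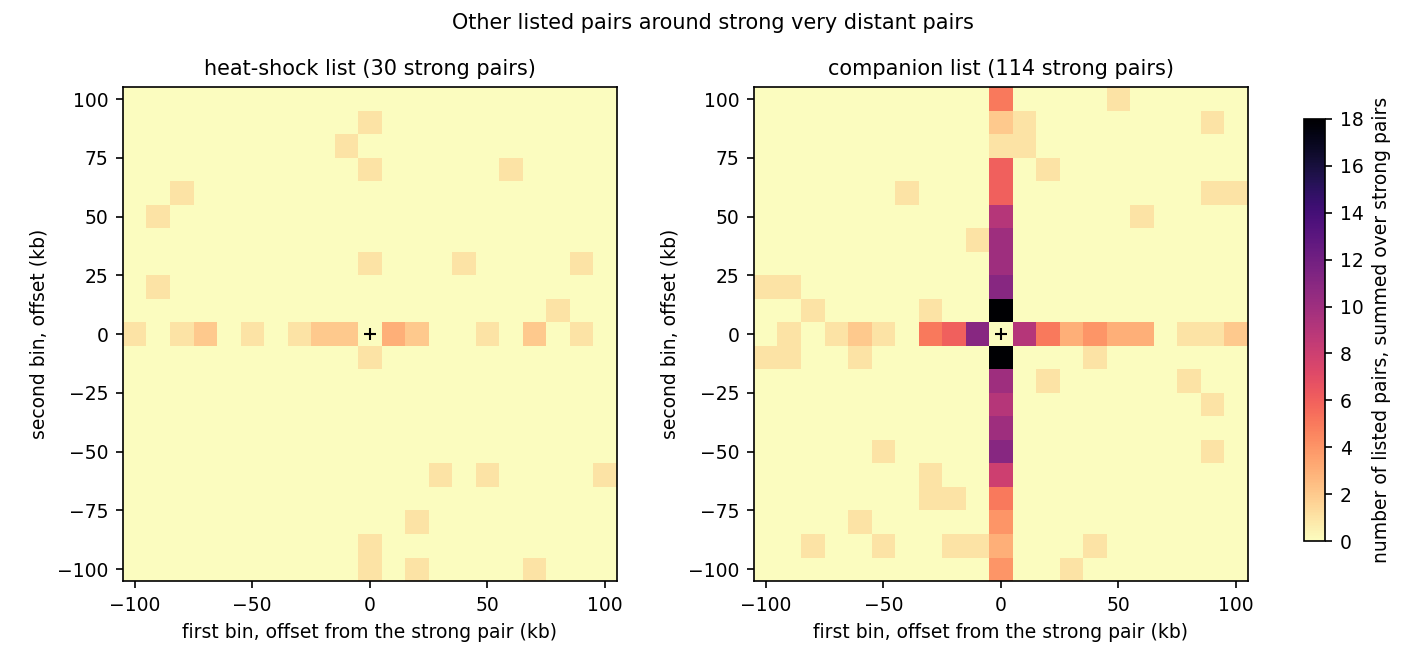
Number of other listed pairs at each offset (kb) of the first and second bin from very distant pairs scoring -10 or below outside the largest group, heat-shock list (30 strong pairs) left and companion list (114) right. A listed pair near several strong pairs is counted around each of them, which gives 39 heat-shock and 251 companion entries, of which 25 and 218 lie on the column or row of the strong pair.

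The strongest very distant pairs fell into all these forms. Ranks here and below were taken among the very distant pairs of a list, not among all of its pairs. The strongest heat-shock pair, 2L 6190001-6200000 with 2L 18450001-18460000, was isolated there with a score of -85.3, and each of its bins had that 1 very distant partner. It was the third pair of the companion list, with -178, and 5 more pairs within 50 kb all ran along 1 of its bins, the strongest at -29.0. Pair 3L 9380001-9390000 with 3L 15900001-15910000 was the fourth of both lists, with -46.1 in the heat-shock list, where it was isolated, and -135 in the companion list, where it had 1 neighbour at -5.79. The third heat-shock pair, 3L 7780001-7790000 with 3L 20630001-20640000, scored -48.6 there. No companion pair lay within 100 kb of it, although its first bin had 7 very distant companion partners elsewhere. The second and the fifth heat-shock pairs belonged to the largest group.

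Further isolated heat-shock pairs were 3L 11260001-11270000 with 3L 18310001-18320000, at -31.9, and 2L 7450001-7460000 with 2L 17830001-17840000, at -28.2. Both were in the companion list, at -97.0 and -69.3. The fifth isolated heat-shock pair, 2R 5410001-5420000 with 2R 19350001-19360000, scored -26.5 there. It ranked only 178th among the very distant companion pairs, at -8.67, and it was isolated in both lists.

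The strongest companion pair, 3L 10360001-10370000 with 3L 19550001-19560000, had no other companion pair within 100 kb despite its score of -269. It ranked 23rd among the very distant heat-shock pairs, with -22.4. The second companion pair, 2R 9020001-9030000 with 2R 17930001-17940000, had a heat-shock score of -20.8 and a companion score of -192. The fifth, 3L 12040001-12050000 with 3L 18080001-18090000, scored -12.7 in the heat-shock list, where it was isolated, and -110 in the companion list, where 5 weaker pairs ran along 1 of its bins.

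Few very distant pairs were the same in both lists. The 310 shared pairs were 7.57% of the heat-shock pairs (6.77 to 8.42%) and 12.3% of the companion pairs (11.01 to 13.6%), against 18.4% and 32.2% over the complete lists. Of these 310, 157 (50.6%) lay in the largest group. Outside it 153 were left, 4.01% (3.41 to 4.68%) of the heat-shock pairs and 6.49% (5.53 to 7.56%) of the companion pairs. By arm, the shares outside the group were 3.98% and 7.05% on 2L, 3.70% and 5.82% on 2R, and 4.21% and 6.53% on 3L, and the intervals of the arms overlap within each list. With the group included, the 2R shares were 15.2% and 24.1%. Pairs over 5 Mb apart inside 3R were shared at 3.10% (2.48 to 3.83%) and 6.37% (5.11 to 7.82%), and inside X at 6.57% (4.97 to 8.48%) and 7.95% (6.03 to 10.2%). The shares were higher, 11.1% and 18.6%, for pairs over 5 Mb apart that touch the end 1 Mb of 2L, 2R or 3L. For pairs 1 to 5 Mb apart in the same interiors they were 11.2% and 22.8%.

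Sharing followed strength within each list. Among pairs at -10 or below, 55 of 67 heat-shock pairs (82.1%, 70.8 to 90.4%) and 74 of 150 companion pairs (49.3%, 41.1 to 57.6%) were shared. Outside the largest group, 18 of 30 (60%, 40.6 to 77.3%) and 38 of 114 (33.3%, 24.8 to 42.8%) were. Above -3 the share was 2.46% (1.95 to 3.07%) and 5.76% (4.66 to 7.02%). Outside the group the shared pairs had a median distance of 8.28 Mb, a Spearman rho between their scores of 0.50 across 153 pairs that partly share bins, and median scores of -3.47 (heat-shock) and -4.29 (companion). Sharing did not require a patch: 72.5% of these 153 pairs were isolated among heat-shock pairs and 64.1% among companion pairs.

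Beyond identical bins, the same neighbourhoods were joined in both lists more often, but in a minority of cases. Another 713 heat-shock pairs (17.4%) and 556 companion pairs (22.0%) had a pair of the other list within 50 kb at both ends without sharing both bins. The remaining 3074 heat-shock pairs (75.03%, 73.7 to 76.3%) and 1662 companion pairs (65.7%, 63.9 to 67.6%) had none. The shares were 40.6% and 22.9% over the complete lists and 43.7% and 24.2% at 1 to 5 Mb in the same interiors. Over 5 Mb apart, they were 81.2% and 68.2% inside 3R and 80.8% and 74.4% inside X. For pairs over 5 Mb apart that touch the end 1 Mb of 2L, 2R or 3L, they were 66.6% and 50.6%. The 3074 and 1662 pairs were mostly isolated, 74.8% of the heat-shock and 82.8% of the companion ones, and weak, with median scores of -2.33 and -2.59. Of the groups, 158 of 426 heat-shock groups (37.1%, 32.5 to 41.9%) and 119 of 222 companion groups (53.6%, 46.8 to 60.3%) had a pair of the other list within 50 kb of their limits.

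Some list-only pairs were strong. After the pair 3L 7780001-7790000 with 3L 20630001-20640000, the strongest heat-shock pair with no companion pair within 50 kb joined 2R 6500001-6510000 to 2R 18140001-18150000, with -28.7 and a neighbour at -11.9, and its bins had no very distant companion partner. The next were 3L 2790001-2800000 with 3L 15500001-15510000 at -17.8, 2R 4810001-4820000 with 2R 16890001-16900000 at -16.8, and 3L 7350001-7360000 with 3L 20530001-20540000 at -13.7. The first and second of these were isolated. The last joined 2 of the most reused bins of the heat-shock list, with 16 and 21 very distant partners.

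In the companion list the strongest pair with no heat-shock pair within 50 kb joined 2R 9020001-9030000 to 2R 17820001-17830000, at -37.3. Its first bin is also that of the second strongest companion pair, whose partner lies 110 kb further along. Next came 3L 17860001-17870000 with 3L 23190001-23200000 at -36.5, whose bins were in no heat-shock pair at any distance, and 3L 17460001-17470000 with 3L 23360001-23370000 at -35.2. Pair 2L 7980001-7990000 with 2L 21730001-21740000 scored -33.4, and 3L 14460001-14470000 with 3L 20280001-20290000 scored -33.1. Another isolated pair, 2L 1670001-1680000 with 2L 18350001-18360000, scored -28.6 and was in the companion list alone, although its first bin had 63 heat-shock partners at other distances.

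Anchors were reused more in the heat-shock list. Of the 6251 interior bins, 3313 were used by heat-shock pairs (53.0%) and 2666 by companion pairs (42.6%), with a median of 2 and 1 very distant partners for each bin used. Bins with 5 or more numbered 377 and 128, and pairs that touched such a bin made up 58.4% (56.9 to 59.9%) of the heat-shock pairs and 35.2% (33.4 to 37.1%) of the companion pairs. At equal length the heat-shock share was 44.9% (43.0 to 46.9%). With partners counted in each set of pairs alone, the share was 99.3% and 96.3% in the complete lists. It was 95.3% and 83.7% for pairs 1 to 5 Mb apart in the same interiors. Over 5 Mb apart, it was 71.0% and 38.6% inside 3R and 45.5% and 19.0% inside X. For pairs over 5 Mb apart that touch the end 1 Mb of 2L, 2R or 3L, it was 67.3% and 56.7%. Of the bins with 5 or more very distant partners, 59 were the same, 15.6% of the heat-shock set and 46.1% of the companion set. With 377 bins against 128, the size of the companion set limits the heat-shock share. Of all bins used, 1829 were used in both lists, 55.2% of the heat-shock and 68.6% of the companion bins. Across the interior bins the numbers of very distant partners had a Spearman rho of 0.36, a description of bins that share a list.

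**Figure D5:**
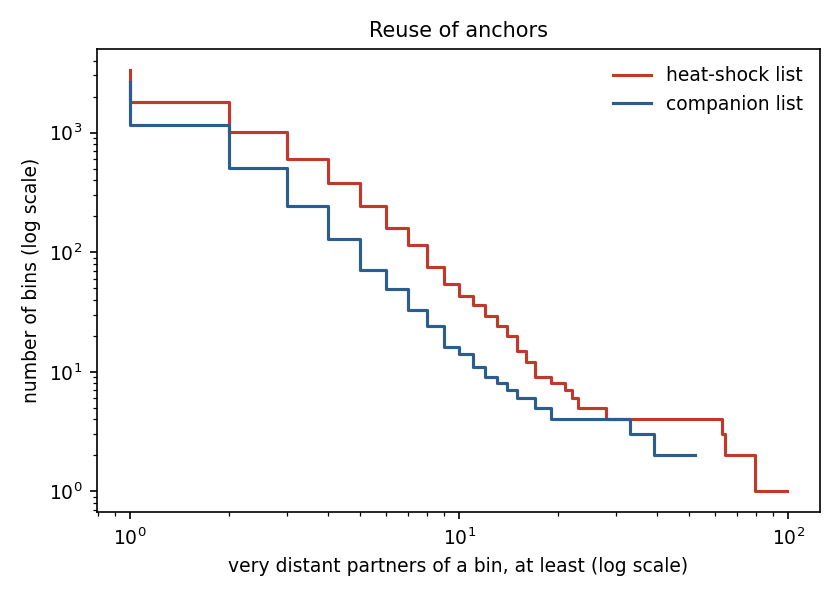
Number of bins (log axis) with at least a given number of very distant partners (log axis) in the heat-shock and companion lists. The steps beyond 30 partners are the 4 bins of the largest group, which reach 99 heat-shock and 52 companion partners.

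The 4 block bins of 2R led both lists, with 63 to 99 very distant heat-shock and 33 to 52 companion partners. Of these bins, 3 also had the largest surplus of heat-shock over companion partners. Outside 2R 18410001-18580000, the second end of the group, 372 heat-shock and 124 companion bins had 5 or more, and the bins adjacent to them had a median of 1 very distant partner in either list. Some had reused neighbours: 2L 19140001-19150000, with 19 heat-shock partners, lay between bins with 9 and 8. Some reached 1 place: more than 50% of the partners fell in a single 1 Mb stretch for 136 of 372 heat-shock bins (36.6%, 31.7 to 41.7%) and 59 of 124 companion bins (47.6%, 38.5 to 56.7%). Some reached many places, with every pair isolated, which was the case for 51 heat-shock bins (13.7%) and 19 companion bins (15.3%). These kinds can overlap, and the remaining bins lay between them.

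The bin 2L 13210001-13220000 had 28 very distant heat-shock partners and 3 companion partners. At most 15 of the 28 fell in 1 Mb, and its adjacent bins had 0 and 1. It was rich at all distances, with 173 and 36 partners in all. The next bins outside the block, taken by the same order, were 2R 13460001-13470000 with 23 and 4, 2L 10610001-10620000 with 22 and 4, and 3L 20530001-20540000 with 21 and 6. Bin 3L 7170001-7180000 was scattered, with 17 heat-shock partners over 20.2 Mb, all in isolated pairs, and 2 companion partners. By contrast, 15 of the 17 heat-shock partners of 3L 19810001-19820000 lay in 1 Mb.

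Richest outside the block in the companion list was 2L 19490001-19500000, with 9 very distant heat-shock partners and 19 companion partners. The largest surplus of companion over heat-shock partners was at 3L 11260001-11270000, with 1 heat-shock and 15 companion partners. Next were 2L 10360001-10370000, with 6 and 17, and 2R 6740001-6750000, with 1 and 12. For the first of these, the strongest companion pair, with 3L 18310001-18320000, was also in the heat-shock list. Of the companion partners of 2L 10360001-10370000, 12 lay in 1 Mb. The sixth companion group hung on this bin with 10 bins of 2L 1740001-1880000, and no heat-shock pair lay within 50 kb of its limits. Bin 3L 11060001-11070000 had all of its 12 companion partners within 0.22 Mb, and 3 heat-shock partners.

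A set of very distant contacts that closed among themselves was found on 2L in the companion list, picked out after its values were seen. When bin a is paired with b and b with c further along, the pair of a and c closes a triangle. Of 2809 such chains 3 were closed in the heat-shock list (0.107%), against 15 of 927 in the companion list (1.62%). A closing pair is over 10 Mb long. Per 1000 possible bin pairs, 0.539 heat-shock and 0.411 companion pairs were listed at 10 to 15 Mb, and 0.208 and 0.246 over 15 Mb. The 3 heat-shock closures are too few to set against these densities, and triangles were not compared at equal length. On 2L lay 10 of the 15 companion triangles, which used only 9 bins and 18 pairs, of the 27 pairs of these bins that are over 5 Mb apart. These bins were picked as members of triangles, so many of their pairs are listed by selection. The bins were 2L 2560001-2570000, 2L 2770001-2780000, 2L 7980001-7990000, 2L 8590001-8600000, 2L 8600001-8610000, 2L 10870001-10880000, 2L 15580001-15590000, 2L 16150001-16160000 and 2L 21730001-21740000. Their 18 pairs scored between -33.4 and -2.33 with a median of -5.11, and 14 were isolated.

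None of the 18 pairs was in the heat-shock list, and no heat-shock pair lay within 50 kb of any of them at both ends. Of all very distant companion pairs, 12.3% were shared and 65.7% had no heat-shock pair within 50 kb at both ends. For 5 of the 9 bins the heat-shock list held no very distant pair at all, which was also the case for 2938 of all 6251 interior bins. Bin 2L 2770001-2780000, in 7 of the triangles, had 1 heat-shock partner at any distance and 10 companion partners. Bin 2L 21730001-21740000, in 6, had 11 and 13, so it was not missing from the heat-shock list as such. The heat-shock triangles were 2 on 2L, both on the reused bin 2L 13210001-13220000. They held 4 bins and 5 pairs, with scores from -6.42 to -2.005, and 1 of these pairs was also in the companion list. There was 1 more on 3L, with scores from -2.16 to -2.02.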

How the data were processed

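Both lists hold the score as deposited by the authors, beside an arm and the limits of 2 bins of 10 kb. The submitters' processing notes name Bowtie 0.12.7. How pairs were called, the model behind the score and the genome build were not given in the sources used. A gene table of another assembly runs up to 4.17 Mb past the last bin of an arm and served only for this comparison of lengths.

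Both heat-shock Hi-C libraries carry 1 list in their labels, and no label names the other. Arm limits were the lowest and highest positions of both lists. Isolation was counted among the very distant pairs of a list, and groups are single-linkage groups within 50 kb at both ends. Shares have exact binomial intervals and ratios of numbers exact conditional binomial intervals. Functions were tested on simulated lists. Named were the 5 strongest, strongest isolated, strongest list-only and best-ranked shared pairs, the 5 largest groups and the 5 richest bins, with the 3 largest differences each way. The further bins, the triangles, the surroundings of strong pairs and the distance bands were chosen after the values were seen. Members, lists and rules were all chosen with earlier results of these data known. Python 3.11.15, numpy 2.4.6, pandas 2.3.3, scipy 1.17.1 and matplotlib 3.10.9 were used.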

Additional observations from a re-analysis of the deposited data

How the results depend on the processing

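No paired analysis was possible because 1 list covers both heat-shock libraries, and leaving out 1 library was not possible for the same reason. Across 49 alternatives, 32 values left the reported 95% interval and 17 did not. No ratio crossed 1 as a point value. Over 15 Mb the interval of the ratio lay below 1 in the strongest 50% of each list (0.69, 0.48 to 0.99) and at equal length (0.49, 0.36 to 0.67). It included 1 in the main setting and in the other alternatives. Alternatives without the largest group, and all those for distance bands, were added after the data were seen. The companion isolated and reused shares cannot change at equal length and were not recomputed. Isolated shares, heat-shock then companion, were 81.3% and 79.8% with a 20 kb neighbourhood, where the order of the lists turned, 40.4% and 52.0% with 100 kb, 70.9% and 75.03% without the 8 bins of 20 or more very distant partners, and 69.5% and 74.8% without the largest group. The heat-shock isolated share was 70.4% in the strongest 50% of each list and 70.1% at equal length. Shared parts of the heat-shock and companion pairs were 12.1% and 17.4% within 1 bin, 24.8% and 34.0% within 5 bins (very distant pairs of the other list only), 10.7% and 17.4% in the strongest 50%, 4.03% and 6.38% without the 8 bins, and 4.01% and 6.47% without the largest group. At equal length the heat-shock part was 11.4%. Pairs on reused anchors made up 22.6% and 13.0% with 10 or more partners, 43.5% and 27.9% in the strongest 50%, 53.9% and 33.0% with 2 Mb left out at the arm ends, and 53.5% and 29.7% without the largest group. At equal length 44.9% of heat-shock pairs did. There the number of heat-shock over companion pairs was 1.19 between 5 and 7.5 Mb and 0.49 over 15 Mb, since fewer heat-shock pairs enter. The cause of the other moves was not tested. Depth is unknown, which limits what a missing pair can show.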

Other observations

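By median, bins with 5 or more very distant partners also had more partners nearby. The 4 block bins of 2R, the richest in both lists, had at most 2 within 1 Mb. In the heat-shock list, the 54 bins with 10 or more very distant partners had a median of 6.5 partners within 1 Mb. Those with 5 to 9 had 2, and those with 1 to 4 and with none had 1. In the companion list the medians were, in the same order, 2.5 (16 bins, quartiles 1 and 9.25), 2, 1 and 1. Across the 6251 interior bins the relation was weak, with a Spearman rho of 0.18 for heat-shock and 0.15 for companion partners, given as a description of bins that share a list. Bin 3L 20530001-20540000 had 21 very distant partners and 81 within 1 Mb in the heat-shock list, against 6 and 44 in the companion list. The scattered anchor 3L 7170001-7180000 had 17 and 2 in the heat-shock list, against 2 and 3 in the companion list.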
